A study of Mus musculus with 8 samples.

Results

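Oxidative phosphorylation subunits are the proteins of the 4 respiratory chain complexes (I to IV) and of ATP synthase (complex V) in the inner mitochondrial membrane. Members were taken by symbol alone: the nuclear genes whose names start with Nduf (followed by a, b, c, s or v and a digit), Sdha to Sdhd, Uqcr, Cox4 to Cox8 or Atp5, without pseudogenes, and the 13 protein-coding genes of mitochondrial DNA. This gave 100 of 31910 rows of the deposited count table, 87 nuclear-encoded and 13 mitochondrially encoded. By complex there were 45 in complex I, 4 in complex II, 9 in complex III, 23 in complex IV and 19 in complex V. Complex I (NADH dehydrogenase) and complex II (succinate dehydrogenase) pass electrons to ubiquinone, complex III passes them to cytochrome c and complex IV to oxygen. Complexes I, III and IV pump protons, and ATP synthase uses the proton gradient to make ATP. Every complex except complex II is built from subunits of both genomes, and the hepatocyte relies on this system to burn fatty acids.

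Liver RNA of mice was sequenced in 8 libraries, 4 from animals given the adeno-associated viral vector AAV2/9-SA (SA) and 4 from animals given AAV2/9-Ctrl (Ctrl). The series title concerns a tetramerised protein from bacteria that binds acetyl-CoA carboxylase in steatohepatitis, a fatty liver with inflammation, and the labels do not spell out what SA stands for or which promoter drives it. The design text describes chow, a high-fat diet for 24 weeks and a diet rich in fat and cholesterol with sugar water for 16 weeks, and a tail vein dose of 4.8e10 vector genomes per mouse once 7 weeks of feeding had passed. The labels give no diet, strain, sex or age for the mouse behind a library, and do not say whether each library is a separate animal, and p-values therefore reflect only how far these samples spread, which may be technical. Total counts were 14114145 to 15922829 in 7 libraries and 28184001 in SA 4. Summed markers of hepatocytes were 57554 to 83208 CPM (counts scaled to a fixed library total) in SA and 66173 to 91930 CPM in Ctrl, and those of kidney were at 0 in every library.

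One library stood apart. Ctrl 4 had 9.23% of its counts in mitochondrially encoded subunits, against 4.18 to 4.87% in the 4 SA libraries and 3.55 to 4.67% in Ctrl 1 to 3. Without it the log2 fold change of SA against Ctrl had the other sign in 7 of 12 mitochondrial and 6 of 76 nuclear subunits tested.

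Of the 100 rows, 98 held counts of their own. Ndufb4, Ndufb4b and Ndufb4c, which stand for a supernumerary subunit of complex I and near-identical copies, carried the same 8 counts and were used once. Tests were possible for 88 of the 98 rows, 76 nuclear and 12 mitochondrial, with a filter that asks for enough counts in at least 4 libraries. The other 10 were the ubiquitous subunits Ndufa13 and Atp5o, the mitochondrial row ATP8 and 7 isoforms of complex IV known from muscle, testis or other tissues. Ndufa13, a complex I subunit, was listed at 0 in every library. In the GENCODE M21 annotation (GRCm38), a gene set used here only to describe sequence, it overlaps Yjefn3 and Tssk6. Atp5o, of the peripheral stalk of ATP synthase, had 1 to 11 counts per library, although the authors' FPKM table (fragments per transcript length and library depth) gave it 146 to 254 FPKM. The count row of Atp5o is therefore no measure of this subunit. Ndufa13 is absent from the FPKM table, so its row could not be checked in this way and is not read as absence of the transcript.

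The low rows of the mitochondrial genome needed their sequences. Mitochondrial DNA encodes the hydrophobic core: ND1 to ND6 and ND4L of complex I, CYTB (cytochrome b) of complex III, COX1 to COX3 of complex IV, and ATP6 and ATP8 of ATP synthase. A stretch of nuclear chromosome 1 carries copies of mitochondrial genes, annotated in GENCODE M21 as separate genes on the minus strand between positions 24611535 and 24616197 (GRCm38). The first 60 bases of the copy of the end of COX1 are printed with the matching bases of the mitochondrial gene (mt-Co1 at chrM:6381-6440, plus strand; Gm29216 at chr1:24616138-24616197, minus strand), because its first bases hold all the differences found. Below them are the first 60 bases of COX2 and of its copy (mt-Co2 at chrM:7013-7072, plus strand; Gm28661 at chr1:24615506-24615565, minus strand), because these do not differ. Capitals mark bases that differ between a gene and its copy, and all run 5′ to 3′ along the gene.

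mt-Co1: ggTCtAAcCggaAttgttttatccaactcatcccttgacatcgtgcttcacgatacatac
Gm29216: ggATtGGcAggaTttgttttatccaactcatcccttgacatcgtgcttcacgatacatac
mt-Co2: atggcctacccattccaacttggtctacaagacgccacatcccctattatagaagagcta
Gm28661: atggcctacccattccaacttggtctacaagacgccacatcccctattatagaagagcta

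Counted from the first base of COX1, its copy covered positions 1054 to 1545 and differed by T1056A, C1057T, A1059G, A1060G, C1062A and A1066T, with 486 of 492 bases identical. The copy of COX2 matched in 681 of 681 bases, that of ATP6 (Gm10925) in 678 of 678, that of COX3 (Gm28437) in 783 of 783 and that of ND4L (Gm10222) in 294 of 294. The copy of ND3 (Gm28438) matched in 344 of 345 bases, with T3C as its difference counted from the first base of ND3. The copy of ND4 (Gm28439) covered only its first 876 of 1378 bases, all of them identical. Of all stretches of 100 bases, 99.5% of those in COX2 and ATP6, 99.9% in COX3, 97.6% in ND3 and 98.5% in ND4L also occurred in another gene, against 60.8% in ND4 and 30.8% in COX1.

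The 5 rows with more than 95% of shared stretches were low in the count table. COX2 had 558 to 1869 counts per library and COX3 480 to 1200, whereas COX1, the catalytic core of the same complex, had 221273 to 562886. ATP6 had 284 to 891 counts, ND3 24 to 51 and ND4L 13 to 29. ATP8, which lies between COX2 and ATP6 and overlaps ATP6 in mitochondrial DNA, had at most 14 counts, with 0% of its stretches in another annotated gene. The search covered annotated transcripts only, so a nuclear copy of ATP8 outside them was not examined. ND4, with its 60.8%, was not low. In the FPKM table these rows lay near the other mitochondrial rows, except ND3, which was the lowest of the 13. COX2 had 6127 to 13704 FPKM there and its nuclear copy 6047 to 13617 FPKM, a ratio of 0.998 to 1.03 per library. COX3 and its copy had a ratio of 1.001 to 1.03. Levels of COX2, COX3, ATP6, ATP8, ND3 and ND4L in the count table are therefore given as read counts of those rows and not as transcript levels. The sources used here do not say what the counting program did with such reads.

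**Figure D1:**
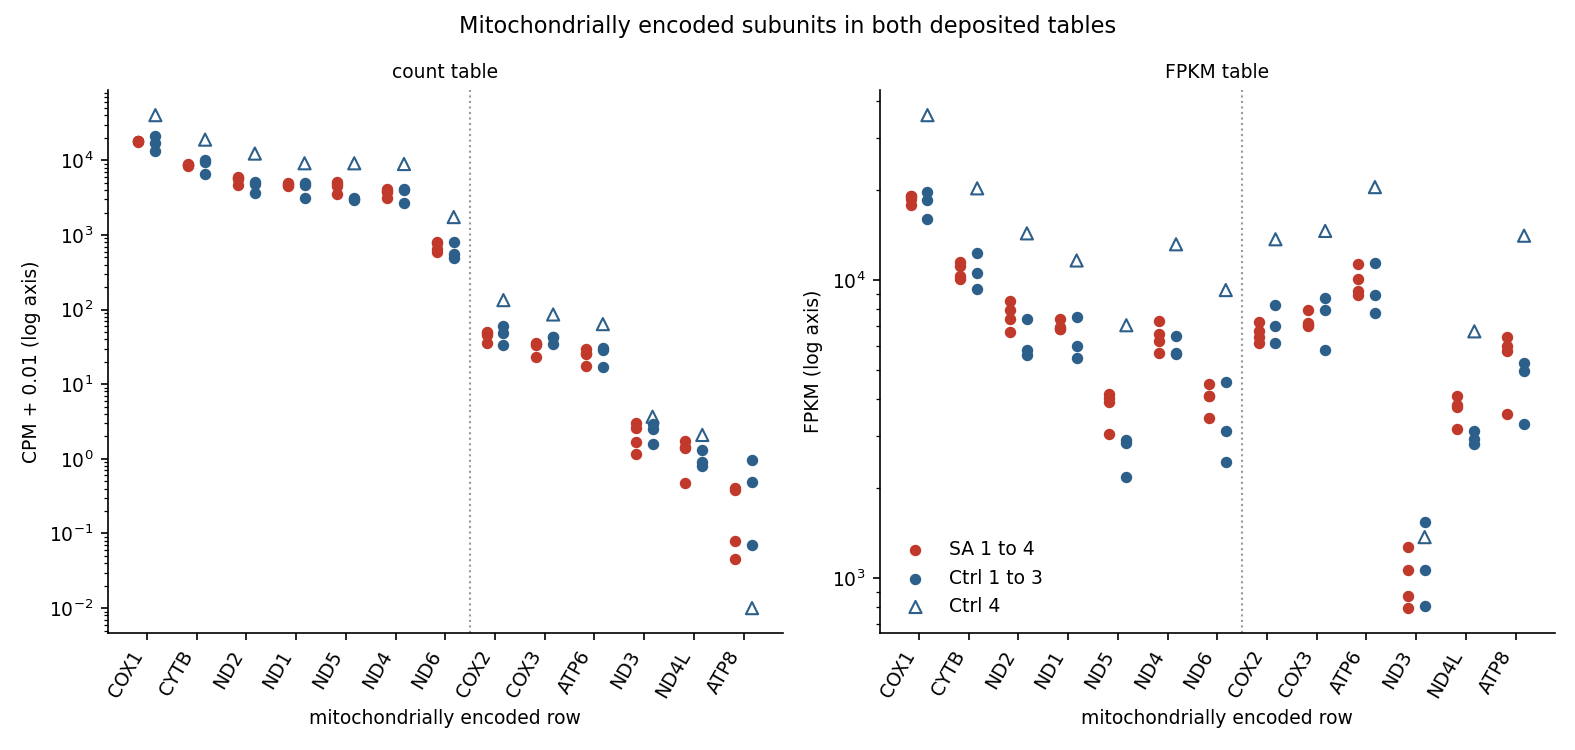
The 13 mitochondrially encoded rows in the count table (left, CPM + 0.01, log axis) and in the FPKM table (right, FPKM, log axis), 1 point per library. Right of the dotted line are the 5 rows of shared sequence and ATP8, all below the other rows in the counts, and only ND3 below them in FPKM; Ctrl 4 (triangles) lies above the other libraries for COX1 at 40410 CPM, against 13353 to 20991 CPM in Ctrl 1 to 3.

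Per transcript length, mitochondrially encoded subunits stood far above their nuclear partners in liver. In FPKM averaged over the 8 libraries, COX1 was the highest member at 20604, followed by CYTB at 11946. The median over the 7 mitochondrial subunits of complex I was 4432 FPKM, against 90.4 FPKM over 34 nuclear ones in that table. In complex IV the medians were 8280 FPKM over 3 mitochondrial and 201 FPKM over 12 nuclear subunits. The 8280 FPKM is the value of COX3, whose nuclear copy was listed at nearly the same FPKM, so it may not be a level of COX3 alone. The 4432 FPKM is that of ND6, of which 0% of stretches were in another annotated gene. Atp5b, the catalytic beta subunit of ATP synthase, was the highest nuclear member at 823 FPKM. Single nuclear rows of this table can be far off the counts. Cox5a, a subunit of complex IV, was listed at a mean of 7.12 FPKM and Cox6a1, another, at 582 FPKM, whereas their counts came to 52.5 and 241 CPM in SA. Some rows also swung between libraries. Cox6c was at 3.60 FPKM in Ctrl 4 and 316 FPKM in Ctrl 3, against 96.6 and 112 CPM. Atp5d was at 0.346 FPKM in SA 4, against 303 CPM. Some rows were instead low in the counts. Ndufb9 (704 bases) came to 15.5 CPM in SA but a mean of 230 FPKM, whereas Ndufb7 (623 bases) came to 41.0 CPM and 91.4 FPKM. Ndufb6 was likewise at 13.9 CPM and 92.7 FPKM, and Atp5l at 21.7 CPM and 151 FPKM. Which table is nearer the transcript level was not tested. All values that follow are TMM-normalized CPM from the count table, scaled to the counts of all tested genes, unless FPKM is named.

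No subunit of either genome passed the test of SA against Ctrl. Of 88 members tested, 0 had an adjusted p under 0.05 with the edgeR quasi-likelihood test, against 0.0162% of all 12358 genes tested, and with DESeq2 0 did so as well, against 0.346% of all genes it tested. At an unadjusted p under 0.05 there was 1 member, COX3, against 6.21% of all genes. In 0 of the 88 members did the 4 SA libraries lie all above or all below the 4 Ctrl libraries, against 3.12% of all genes. The biological coefficient of variation was 22.6%, so changes well under 2-fold were hard to detect. In simulated counts with 100 genes changed 2-fold and 100 changed 4-fold, 63% of those changed 2-fold were called. The simulation gave 166 calls, against 2 in the data, so its adjusted threshold was easier to reach. The SE of mitochondrial rows ran from 0.26 (COX3) to 0.46 (ND4L), so a 2-fold change could go uncalled in them. Since these are bulk samples, fewer cells of a type and less RNA per cell cannot be told apart.

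Fold changes of the subunits were small and mostly negative. Of 76 nuclear members tested, 68 had a negative log2 fold change and 8 a positive one, with a median of -0.10, against -0.01 for all genes tested. All 12 mitochondrial members tested were negative, with a median of -0.35. Neither median held without single Ctrl libraries. The nuclear median was 0.00159 without Ctrl 1, 0.00935 without Ctrl 2, -0.01 without SA 3 and -0.22 without Ctrl 4. The mitochondrial median turned to 0.05 without Ctrl 4.

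Summed CPM showed the libraries behind these medians. The 85 distinct nuclear rows summed to 9635, 10390.2, 8054 and 10849.6 CPM in SA 1 to 4, and to 11850.5, 12309, 9026 and 8377 CPM in Ctrl 1 to 4. Both groups held a low library, SA 3 in one and Ctrl 4 in the other, and the groups overlapped. The 13 mitochondrial rows summed to 47068, 46752, 47579 and 42628 CPM in SA 1 to 4, and to 45045, 48276, 32852 and 101037 CPM in Ctrl 1 to 4. The SA libraries lay within a narrow band. Ctrl 1 lay inside that band, Ctrl 2 just above it, Ctrl 4 far above it and Ctrl 3 below it.

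The ratio of mitochondrial to nuclear sums does not depend on how a library is scaled. It was 4.89, 4.50, 5.91 and 3.93 in SA 1 to 4, and 3.801, 3.92, 3.64 and 12.1 in Ctrl 1 to 4. All 4 SA libraries lay above Ctrl 1 to 3, SA 4 by no more than 3.93 against 3.92 in Ctrl 2, and below Ctrl 4. The log2 of the ratio of group means was -0.29 with all libraries and 0.34 without Ctrl 4, and such a sum over members was given no test. Within complex I the ratio was 10.1, 9.35, 12.3 and 7.54 in SA 1 to 4, against 7.31, 6.84, 6.97 and 25.5 in Ctrl 1 to 4. For complex III it was 6.02 to 8.81 in SA, against 5.62 to 6.38 in Ctrl 1 to 3 and 18.4 in Ctrl 4. For complex IV it was 10.6 to 15.5 in SA, against 8.54 to 10.3 in Ctrl 1 to 3 and 35.2 in Ctrl 4. The mitochondrial sum of complex IV was nearly all COX1, 40410 of 40630 CPM in Ctrl 4, as the rows of COX2 and COX3 were low.

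**Figure D2:**
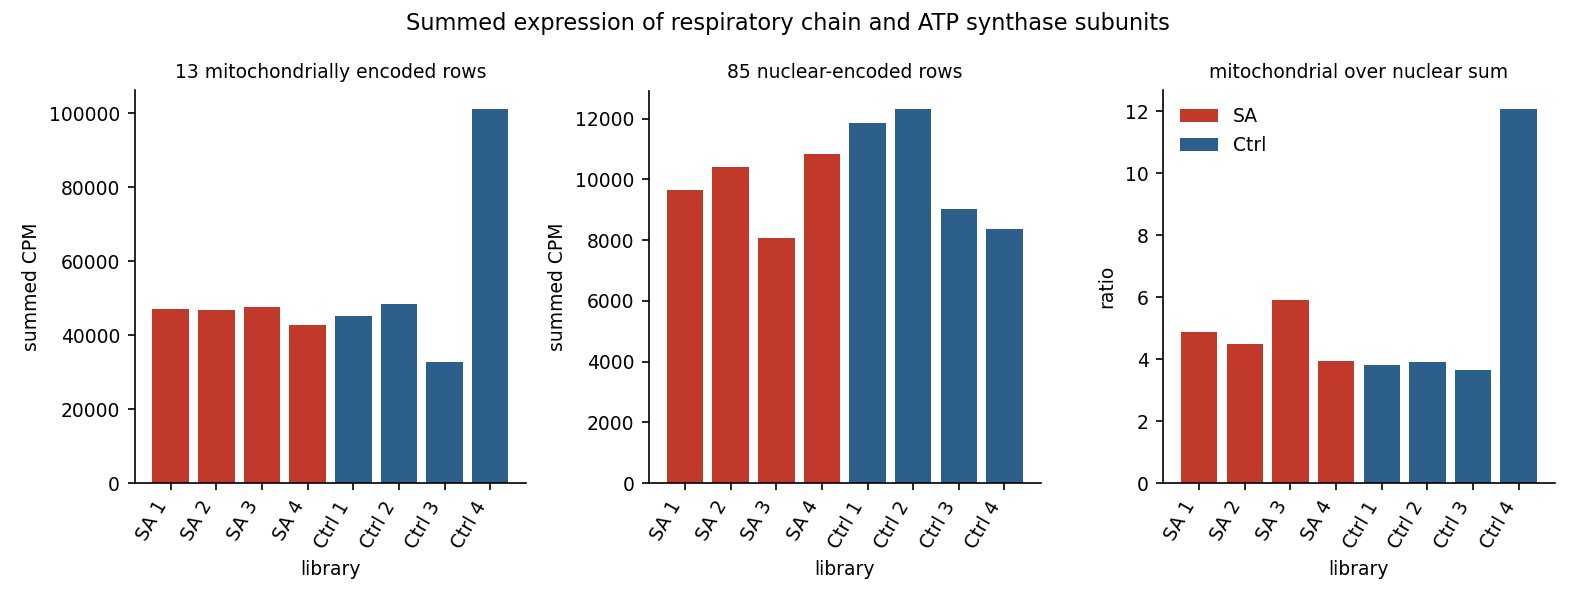
Summed CPM of the 13 mitochondrially encoded rows, of the 85 distinct nuclear-encoded rows, and the ratio of both sums, 1 bar per library with SA left of Ctrl. Ctrl 4 has the highest mitochondrial sum, 101037 CPM, and a ratio of 12.1, against 3.64 to 5.91 in the other 7 libraries.

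Among the mitochondrial subunits of complex I, ND5 differed most between the fits with and without Ctrl 4. ND5, a proton-pumping membrane subunit, had 5075, 4478, 4789 and 3501 CPM in SA 1 to 4, and 3141, 3039, 2944 and 9148 CPM in Ctrl 1 to 4. Every SA library was above Ctrl 1 to 3 and below Ctrl 4. The log2 fold change was -0.03 ± 0.34 (SE, n = 4 in each group; edgeR, adjusted p = 0.996) with all libraries and 0.54 ± 0.17 (SE, n = 4 SA and 3 Ctrl; edgeR, unadjusted p = 0.0101, adjusted p = 0.381) without Ctrl 4. The FPKM table, made from the same libraries, listed ND5 at 3039 to 4143 in SA, against 2188 to 2910 in Ctrl 1 to 3 and 7055 in Ctrl 4. ND5 was also taken as a share of the 7 high mitochondrial rows (ND1, ND2, ND4, ND5, ND6, CYTB and COX1), which does not depend on their total. By this share ND5 took 8.23 to 10.8% in SA, against 6.31 to 9.08% in Ctrl. Ctrl 3 at 8.99% and Ctrl 4 at 9.08% were within the SA range, so SA was not above all of Ctrl 1 to 3 by share.

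The other subunits of complex I on mitochondrial DNA overlapped between the groups. ND2, another proton-pumping membrane subunit, had 5593, 5762, 6068 and 4730 CPM in SA 1 to 4, and 5112, 4835, 3639 and 12351 CPM in Ctrl 1 to 4. The log2 fold change of ND2 was -0.23 ± 0.32 (SE), and 0.28 ± 0.18 (SE) without Ctrl 4. ND1, at the junction with the ubiquinone site, had 4740 ± 172 CPM in SA and 5478 ± 2573 CPM in Ctrl (SD, n = 4 each). ND4 had 3712 ± 435 CPM in SA and 4940 ± 2753 CPM in Ctrl (SD, n = 4 each). ND6, the one protein gene on the other strand of mitochondrial DNA, had 707 ± 101 CPM in SA and 900 ± 577 CPM in Ctrl (SD, n = 4 each). The higher Ctrl means of ND1, ND4 and ND6 rested on Ctrl 4: over Ctrl 1 to 3 the means were 4251, 3604 and 620 CPM, below those of SA. Their log2 fold changes were -0.21, -0.41 and -0.35 with all libraries, and 0.15, 0.03 and 0.19 without Ctrl 4. The library kit is not described as strand-specific, so reads of ND6 and of the opposite strand cannot be told apart. The rows of ND3 and ND4L, with 1.16 to 3.003 CPM and 0.470 to 1.74 CPM in SA, against 1.57 to 3.66 CPM and 0.784 to 2.08 CPM in Ctrl, also overlapped.

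CYTB, the mitochondrial subunit of complex III, had 8614, 8851, 8793 and 8293 CPM in SA 1 to 4, and 9574, 9999, 6503 and 18994 CPM in Ctrl 1 to 4. COX1, which holds the oxygen-reducing site of complex IV, had 18223, 18058, 18393 and 17746 CPM in SA 1 to 4, and 17270, 20991, 13353 and 40410 CPM in Ctrl 1 to 4. Both subunits varied little among SA libraries, with an SD of 251 CPM for CYTB and 276 CPM for COX1, while those of Ctrl were spread by SDs of 5381 and 12014 CPM. The log2 fold change was -0.38 ± 0.28 (SE) for CYTB and -0.35 ± 0.30 (SE) for COX1, and -0.02 and 0.06 without Ctrl 4.

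COX3 had the smallest unadjusted p of all members. Its row held 34.2, 35.9, 33.2 and 23.2 CPM in SA 1 to 4, and 34.5, 43.4, 43.1 and 86.1 CPM in Ctrl 1 to 4. SA 2 lay above Ctrl 1, the other SA libraries lay below every Ctrl library, and Ctrl 4 was the highest. The log2 fold change was -0.71 ± 0.26 (SE; edgeR, unadjusted p = 0.0165, adjusted p = 0.633), and -0.36 ± 0.16 (SE; unadjusted p = 0.0466) without Ctrl 4. This row is the one of which 99.9% of the sequence is shared with another gene. The FPKM table listed COX3 at 7033 to 7924 in SA, against 5815 to 8692 in Ctrl 1 to 3 and 14616 in Ctrl 4. The log2 fold change of COX3 on log2(FPKM + 1) was -0.26. The rows of COX2, which carries the copper centre that receives electrons from cytochrome c, and of ATP6, part of the proton channel, had log2 fold changes of -0.61 ± 0.33 and -0.51 ± 0.32 (SE), and of -0.08 and -0.06 without Ctrl 4.

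The nuclear subunits of complex I had a median log2 fold change of -0.12 over 35 rows, 31 of them negative, with a range of -0.22 to 0.14. The 7 core subunits, which carry the flavin and the iron-sulfur clusters, had a median of -0.05, and the 28 supernumerary ones, which surround the core, had -0.12. Ndufb5, a supernumerary subunit of the membrane arm with the smallest p among them, had 38.8, 45.7, 36.7 and 42.8 CPM in SA 1 to 4, and 54.7, 51.2, 38.1 and 47.0 CPM in Ctrl 1 to 4, with a log2 fold change (SE) of -0.22 ± 0.15 (edgeR, adjusted p = 0.971). Only Ctrl 3 lay among the SA libraries. Ndufa10, also supernumerary, had 126 ± 12.4 CPM in SA and 144 ± 13.9 CPM in Ctrl (SD, n = 4 each), and Ndufb7 had 41.0 ± 5.93 CPM in SA and 47.9 ± 12.7 CPM in Ctrl (SD, n = 4 each). Of the core, Ndufv1, which binds NADH and the flavin, had 151 ± 24.4 CPM in SA and 156 ± 35.6 CPM in Ctrl (SD, n = 4 each).

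Complex II is wholly nuclear-encoded and is also an enzyme of the citric acid cycle. Sdha, its flavoprotein, had 543, 617, 484 and 603 CPM in SA 1 to 4, and 591, 646, 553 and 493 CPM in Ctrl 1 to 4. Sdhb, the iron-sulfur subunit, had 181, 201, 151 and 223 CPM in SA 1 to 4, and 244, 265, 171 and 217 CPM in Ctrl 1 to 4. Both subunits overlapped between the groups, with log2 fold changes of -0.02 ± 0.15 for Sdha and -0.24 ± 0.17 for Sdhb (SE). The membrane anchors lay on either side of 0, Sdhc at -0.06 ± 0.16 and Sdhd at 0.10 ± 0.20 (SE), and both were negative without Ctrl 4, at -0.13 and -0.07.

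The 8 nuclear subunits of complex III had a median of -0.09, with 7 negative. Uqcrfs1, the Rieske iron-sulfur protein that hands electrons to cytochrome c1, had 231, 252, 209 and 317 CPM in SA 1 to 4, and 287, 302, 232 and 242 CPM in Ctrl 1 to 4. SA 4 was the highest and SA 3 the lowest of all 8 libraries. Uqcrc1, a core protein, had 278 ± 46.5 CPM in SA and 298 ± 45.6 CPM in Ctrl (SD, n = 4 each). Uqcrh, the hinge protein, had 102 ± 12.6 CPM in SA and 109 ± 17.2 CPM in Ctrl, and Uqcrq, a small subunit, had 225 ± 40.4 CPM in SA and 256 ± 98.9 CPM in Ctrl (SD, n = 4 each).

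In complex IV the liver expressed the common form of each subunit. Of 20 nuclear rows, 13 had enough counts, with a median log2 fold change of -0.11 and 12 negative. Cox4i1, the largest nuclear-encoded subunit of the complex, had 251 ± 37.4 CPM in SA and 274 ± 54.7 CPM in Ctrl (SD, n = 4 each), while Cox4i2, its lung and hypoxia isoform, had at most 0.335 CPM in SA and 0.341 CPM in Ctrl. Cox6a1 had 241 ± 47.9 CPM in SA and 267 ± 96.4 CPM in Ctrl (SD, n = 4 each), and its heart and muscle form Cox6a2 was at 0 in all libraries. Cox7a2, with 88.3 ± 9.72 CPM in SA and 99.4 ± 21.1 CPM in Ctrl, stood beside the muscle form Cox7a1 at 0.207 to 0.688 CPM in SA and 0.207 to 0.431 CPM in Ctrl. Cox6b1 had 98.2 ± 15.1 CPM in SA and 108 ± 34.1 CPM in Ctrl, and the testis form Cox6b2 at most 0.268 CPM in SA and 0.341 CPM in Ctrl. Cox7b had 87.9 ± 13.1 CPM in SA and 91.4 ± 27.0 CPM in Ctrl, and Cox7b2 had at most 0.0671 CPM in SA and 0 in Ctrl. Cox8b reached 0.0362 CPM in SA and 0.136 CPM in Ctrl, and Cox8c was at 0. Markers of muscle, in which several of these isoforms are known, summed to at most 0.938 CPM in SA and 1.03 CPM in Ctrl. Cox5a, which had the smallest p of these subunits, had 52.5 ± 9.14 CPM in SA and 60.4 ± 12.8 CPM in Ctrl (SD, n = 4 each), with a log2 fold change (SE) of -0.20 ± 0.18 (edgeR, adjusted p = 0.996).

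Ndufa4, first purified with complex I and now counted as a complex IV subunit, has a hypoxia-linked isoform. Ndufa4 had 193, 221, 153 and 214 CPM in SA 1 to 4, and 254, 246, 166 and 164 CPM in Ctrl 1 to 4. Its isoform Ndufa4l2 had 2.75, 2.002, 2.14 and 1.92 CPM in SA 1 to 4, and 2.73, 2.14, 1.33 and 0.933 CPM in Ctrl 1 to 4. Ndufa4l2 had the highest log2 fold change of all members tested, 0.30 ± 0.35 (SE), an estimate smaller than its error, and 0.09 without Ctrl 4.

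In ATP synthase, 15 of 16 nuclear subunits tested were negative, with a median of -0.10. Atp5b had 1095, 1176, 924 and 1301 CPM in SA 1 to 4, and 1338, 1438, 1124 and 1006 CPM in Ctrl 1 to 4. Atp5a1, the alpha subunit that alternates with beta in the F1 head, had 1028 ± 129 CPM in SA and 1106 ± 110 CPM in Ctrl (SD, n = 4 each). Both overlapped, with log2 fold changes of -0.13 ± 0.17 and -0.11 ± 0.15 (SE). The smallest p values belonged to small subunits. Atp5mpl, a small membrane subunit, had 39.2, 40.7, 26.3 and 36.0 CPM in SA 1 to 4, and 59.4, 48.3, 37.7 and 26.8 CPM in Ctrl 1 to 4. Atp5e, the epsilon subunit, had 78.6 ± 13.2 CPM in SA and 92.8 ± 30.3 CPM in Ctrl, and Atp5l, subunit g of the membrane part, had 21.7 ± 3.66 CPM in SA and 25.1 ± 8.03 CPM in Ctrl (SD, n = 4 each). Medians were -0.16 over 5 membrane subunits, -0.11 over 5 F1 subunits and -0.04 over the 3 c-ring genes.

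**Figure D3:**
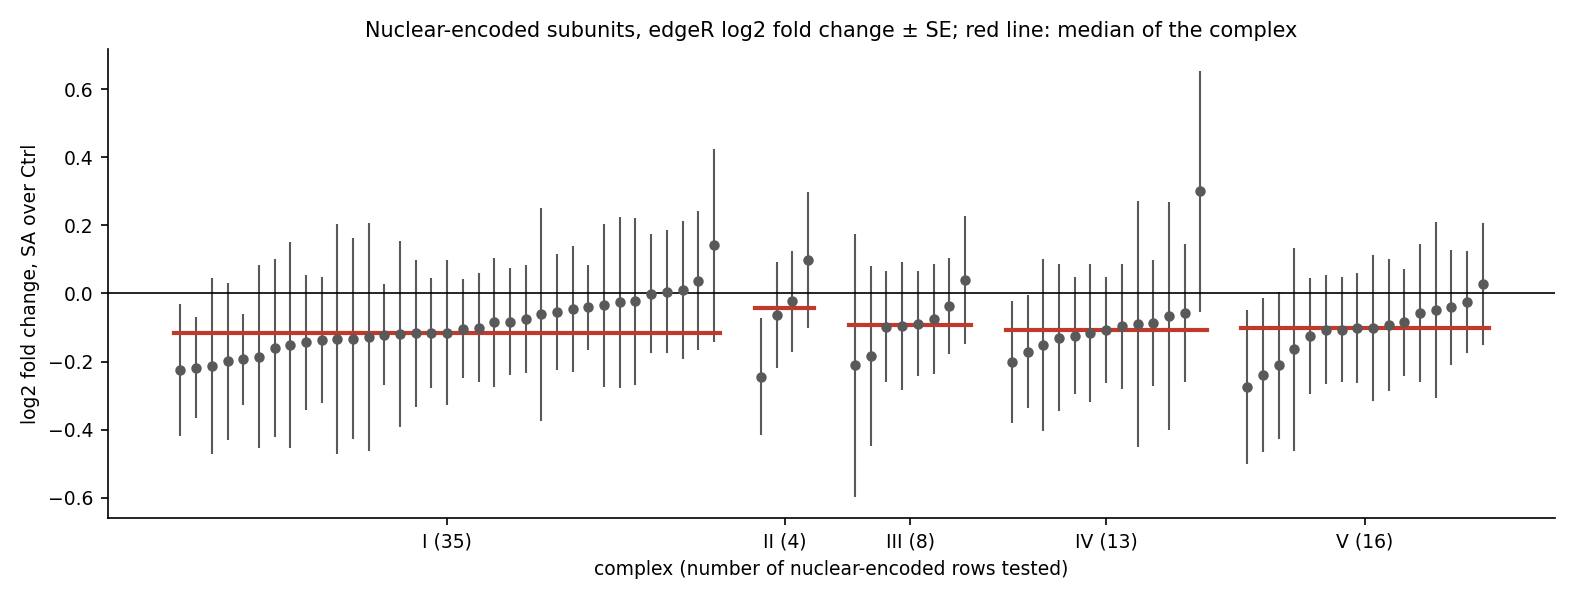
Log2 fold change of SA over Ctrl (edgeR, bars: SE) for 76 nuclear-encoded subunits, sorted within each complex, with the median as a red line. Medians lie between -0.12 in complex I and -0.04 in complex II, and most bars cross 0.

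Nuclear subunits varied together across libraries. The median log2 deviation of the 76 rows from their own mean over 8 libraries was -0.01, 0.10, -0.29 and 0.10 in SA 1 to 4, and 0.32, 0.32, -0.14 and -0.35 in Ctrl 1 to 4. For all genes tested it lay between -0.03 and 0.02. Of the 76, 70 were highest in Ctrl 1 or Ctrl 2, and 63 were lowest in SA 3 or Ctrl 4. These counts were not taken over all genes, and short genes outside the members went the same way. Over 206 other genes with transcripts under 600 bases, medians were 0.30 in Ctrl 1, 0.22 in Ctrl 2, -0.23 in SA 3 and -0.27 in Ctrl 4. The list of cytosolic ribosomal proteins was used for other short and abundant transcripts, but it also holds the kinases Rps6kb1 and Rps6kb2. It had medians of -0.18 in SA 3, and of 0.29 in Ctrl 1 and -0.34 in Ctrl 4. Citric acid cycle genes had -0.26 in SA 3 but 0.08 in Ctrl 4.

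The low level of nuclear subunits in Ctrl 4 was graded. The subunits named as examples of it were chosen after values were seen. Uqcr11, a small subunit of complex III, had 73.6, 67.3, 40.3 and 55.5 CPM in SA 1 to 4, and 91.2, 104, 60.0 and 18.7 CPM in Ctrl 1 to 4. Cox8a, a small subunit of complex IV, had 151, 152, 97.1 and 141 CPM in SA 1 to 4, and 193, 206, 136 and 41.5 CPM in Ctrl 1 to 4. Cox5b, the zinc-binding subunit of complex IV, had 65.4, 67.8, 40.9 and 63.3 CPM in SA 1 to 4, and 82.0, 92.1, 52.3 and 22.3 CPM in Ctrl 1 to 4. In Ctrl 4 these 3 were 4.56, 4.30 and 3.38-fold below the mean of Ctrl 1 to 3. At the other end the highest ratio, 1.33 times the mean of Ctrl 1 to 3, was that of Ndufb2, a supernumerary subunit of complex I with a transcript of 455 bases. It had few counts, at 2.15, 3.003, 3.11 and 3.07 CPM in SA 1 to 4, and 2.39, 1.72, 3.02 and 3.16 CPM in Ctrl 1 to 4. Ndufc1, another such subunit with 315 bases, and Uqcrh with 547 bases were at 1.03 and 0.946 times that mean. Among the longer transcripts Ndufs1, the largest iron-sulfur subunit of complex I, had 58.3, 59.8, 56.8 and 62.9 CPM in SA 1 to 4, and 57.7, 64.3, 56.2 and 66.4 CPM in Ctrl 1 to 4. Atp5c1, the gamma shaft of ATP synthase, and Atp5a1 in Ctrl 4 were at 1.14 and 1.01 times the mean of Ctrl 1 to 3.

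Transcript length went with this gradient only in part, with exceptions on both sides. Ndufb2, Ndufc1, Uqcrh and Atp5l (544 bases, 0.895 times the mean of Ctrl 1 to 3) were among those short but not low. Long but low in Ctrl 4 were, among others, Ndufv3 (1582 bases, 0.440 times that mean), Sdhd (1231 bases, 0.567) and Ndufv1 (1661 bases, 0.661). In Ctrl 4 the median deviation was -0.50 over 29 subunits with transcripts under 600 bases, -0.42 over 24 of 600 to 1000 bases, -0.11 over 18 of 1000 to 2000 bases and 0.03 over 5 longer ones. In Ctrl 1 the same medians were 0.44, 0.34, 0.21 and 0.10. Spearman's rho between transcript length and deviation over the 76 subunits was -0.41, -0.46, 0.38 and 0.43 in SA 1 to 4, and -0.65, -0.36, -0.21 and 0.44 in Ctrl 1 to 4, as a description across genes of the same libraries. Over 12196 other genes rho was 0.05, 0.07, 0.39 and -0.26 in SA 1 to 4, and -0.37, -0.40, 0.18 and 0.28 in Ctrl 1 to 4. The subunits and the other genes had rho of the same sign in SA 3, Ctrl 1, Ctrl 2 and Ctrl 4 and of opposite sign in SA 1, SA 2, SA 4 and Ctrl 3. With GC content of the transcript, rho was -0.36 over the subunits and -0.63 over the other genes in Ctrl 4. The subunits were shorter than most genes: 53 of 76 had transcripts under 1000 bases, against 938 of 12196 other genes. The part of transcript length and GC content in the differences between libraries was not tested.

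**Figure D4:**
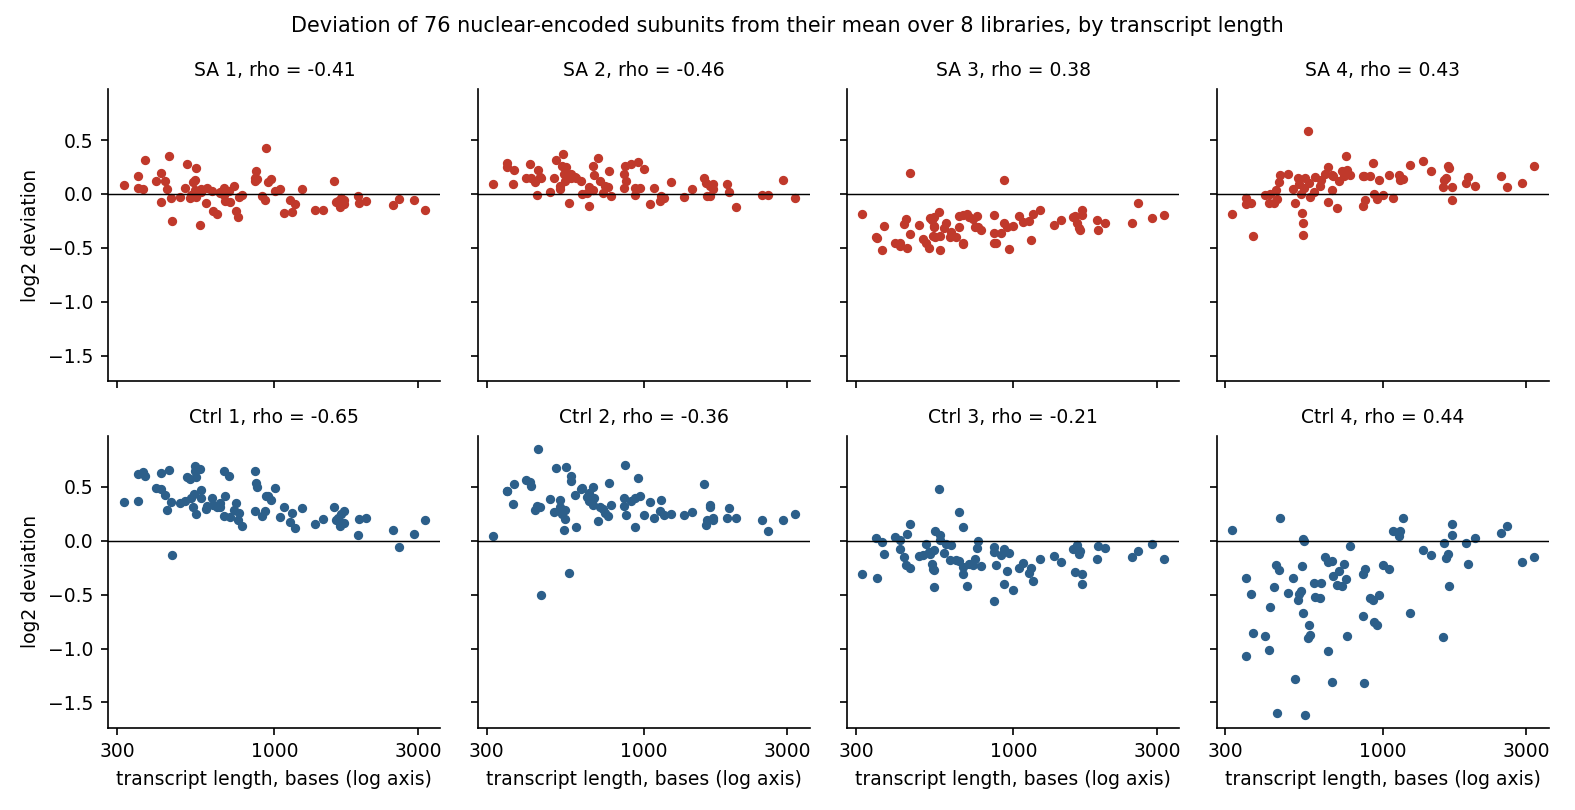
Log2 deviation of each of 76 nuclear-encoded subunits from its mean over 8 libraries against transcript length in bases (log axis), 1 panel per library, SA above Ctrl. Short transcripts lie highest in Ctrl 1 (rho -0.65) and lowest in Ctrl 4 (rho 0.44).

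Without Ctrl 4, 9 of the 88 members had an unadjusted p under 0.05, against 10.2% of all genes, and 0 an adjusted one. They were ND5, with a positive value, and COX3, Atp5e, Atp5mpl, Ndufa2, Ndufb6, Ndufb7, Uqcr11 and Uqcrq, which had negative values of -0.36 to -0.53. In that comparison ND5 and Ndufb6 did not overlap between the groups, against 9.27% of all genes. Ndufb6, a supernumerary subunit of complex I, had 14.1, 12.8, 12.0 and 16.7 CPM in SA 1 to 4, and 17.9, 19.1, 16.9 and 6.60 CPM in Ctrl 1 to 4. In FPKM Ndufb6 overlapped, with 68.6 to 106 in SA and 101 to 124 in Ctrl 1 to 3. Of its stretches of 100 bases, 24.0% also occurred in another gene. Ndufa2, also supernumerary, had a log2 fold change of -0.21 ± 0.26 with all libraries and -0.45 ± 0.17 without Ctrl 4 (SE).

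Promoters of the nuclear subunits held known motifs of respiratory gene regulators. These factors, NRF1, the ETS factor GABP, YY1 and the estrogen-related receptors (ERR), are known to act on many nuclear genes of this system, often with the coactivators of the PGC-1 family. RefSeq promoters (GRCm38.p6, 250 bases before to 50 after the start) were found for 70 of 87 members, 75 promoters in all. The motif letters, searched on both strands, were CCGGAAGT for ETS, AAGATGGC for YY1 and TCAAGGTCA for ERR, beside the NRF1 motif, and 0 member promoters had matches of different motifs that overlapped. The NRF1 motif was in 24.0% of member promoters and 4.603% of all 32851 promoters of the table. The YY1 letters were in 13.3% and 2.75%, the ETS letters in 6.67% and 3.89%, and the ERR letters in 2.67% and 0.423%. Promoters of mitochondrial ribosomal proteins held the YY1 and ETS letters at 16.0% each, above the members, the NRF1 motif at 17.3% and the ERR letters at 0%. The cytosolic ribosomal set was taken by symbol, without leaving out kinases such as Rps6kb1. Its promoters held the ETS letters at 14.0%, the YY1 letters at 8.60% and the NRF1 motif at 7.53%. At least 1 motif was in 30 of the 70 genes. A match is a description of letters and shows no binding. Of the genes with a pair of motifs in a promoter, Atp5g3 (NRF1 and ERR) is not shown. The promoters below are shown because each holds matches of a pair of motifs, in capitals: NRF1 and YY1 in Ndufs6 (chr13:73328433-73328732), NRF1 and ERR in Sdhd (chr9:50603800-50604099), and ETS and NRF1 in Atp5h (chr11:115419870-115420169), all on the minus strand and written 5′ to 3′ along the gene.

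Ndufs6: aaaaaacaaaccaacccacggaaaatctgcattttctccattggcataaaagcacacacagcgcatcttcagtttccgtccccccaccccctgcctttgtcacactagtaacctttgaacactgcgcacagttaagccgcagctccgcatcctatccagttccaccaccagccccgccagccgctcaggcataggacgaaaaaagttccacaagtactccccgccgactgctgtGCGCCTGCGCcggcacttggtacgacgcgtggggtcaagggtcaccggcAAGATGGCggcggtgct
Sdhd: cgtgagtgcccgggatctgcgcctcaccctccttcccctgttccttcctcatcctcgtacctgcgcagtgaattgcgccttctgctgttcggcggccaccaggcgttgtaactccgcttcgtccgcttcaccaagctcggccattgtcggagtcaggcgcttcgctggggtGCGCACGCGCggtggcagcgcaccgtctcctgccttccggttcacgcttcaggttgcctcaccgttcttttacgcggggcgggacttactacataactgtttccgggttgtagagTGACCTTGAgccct
Atp5h: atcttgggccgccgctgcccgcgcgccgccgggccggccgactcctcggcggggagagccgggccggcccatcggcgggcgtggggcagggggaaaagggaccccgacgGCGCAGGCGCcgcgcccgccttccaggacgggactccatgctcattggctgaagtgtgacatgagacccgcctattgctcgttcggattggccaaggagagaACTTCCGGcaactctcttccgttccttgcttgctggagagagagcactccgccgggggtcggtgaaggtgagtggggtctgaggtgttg

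Ndufs6, a zinc-binding subunit of complex I, had 47.1, 48.4, 28.2 and 36.7 CPM in SA 1 to 4, and 59.0, 62.4, 38.1 and 15.7 CPM in Ctrl 1 to 4. Sdhd had 183, 192, 160 and 214 CPM in SA 1 to 4, and 220, 211, 158 and 111 CPM in Ctrl 1 to 4. Both were lowest in Ctrl 4.

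The regulators themselves did not pass the test. Of 11 regulators tested, 0 were called, 9 had a positive log2 fold change and the median was 0.10. Gabpb2, a beta subunit of GABP, had 40.05 ± 5.13 CPM in SA and 30.2 ± 7.49 CPM in Ctrl (SD, n = 4 each), with a log2 fold change (SE) of 0.41 ± 0.18 (edgeR, unadjusted p = 0.0445, adjusted p = 0.797). Ppargc1b, a coactivator of the PGC-1 family, had 11.6 ± 2.68 CPM in SA and 8.83 ± 2.61 CPM in Ctrl, and the receptor Esrrg had 9.43 ± 3.43 CPM in SA and 6.29 ± 3.83 CPM in Ctrl (SD, n = 4 each). Their groups overlapped.

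Other genes of the pathway were counted over 11 lists, on assembly, electron carriers, mitochondrial transcription, the citric acid cycle, carriers and regulators, and the call count was 0 of 122 tested. Their median was -0.06, with 74 negative and 48 positive. Assembly factors had medians of -0.08 over 13 for complex I, -0.19 over 4 for complex II, -0.04 over 6 for complex III, -0.04 over 19 for complex IV and -0.07 over 3 for complex V. Ndufaf7, a methyltransferase of complex I assembly, had 12.4 ± 1.18 CPM in SA and 15.3 ± 3.17 CPM in Ctrl. Sdhaf1, which helps insert iron-sulfur clusters into Sdhb, had 0.661 ± 0.345 CPM in SA and 1.13 ± 0.616 CPM in Ctrl (SD, n = 4 each). Cox19, a copper-related factor of complex IV, had -0.21 ± 0.16, and Tmem70, which assists assembly of ATP synthase, -0.10 ± 0.16 as log2 fold changes (SE).

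Subunits that the symbol rule left out were not called either. Cyc1, cytochrome c1 of complex III, had 224 ± 23.9 CPM in SA and 227 ± 41.8 CPM in Ctrl, and Ndufab1, an acyl carrier protein of complex I, had 15.7 ± 0.865 CPM in SA and 16.99 ± 2.16 CPM in Ctrl (SD, n = 4 each). Electron carriers and feeders had a median of -0.08 over 18 genes, with Pdss2, of ubiquinone synthesis, at 0.25 ± 0.16 (SE). Mitochondrial transcription and RNA processing had -0.01 over 22 genes, with Polrmt, the mitochondrial RNA polymerase, at 0.21 ± 0.18 (SE). The citric acid cycle list had -0.09 over 16 genes, 14 negative, with Cs, citrate synthase, at 126 ± 19.2 CPM in SA and 146 ± 17.5 CPM in Ctrl (SD, n = 4 each). Carriers, porins and uncoupling proteins had -0.07 over 7 genes, with Ucp2 at 0.17 ± 0.18 (SE). Mitochondrial ribosomal proteins had -0.03 over 71 genes, led by Mrps30 at -0.38 ± 0.18 (SE, edgeR, unadjusted p = 0.0568). The cytosolic ribosomal list had -0.07 over 88 genes, led by Rpl37a at -0.32 ± 0.19 (SE, edgeR, unadjusted p = 0.115). Among those 88 were the kinases Rps6kb1 at 0.22 and Rps6kb2 at 0.28, which are not ribosomal proteins.

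Cell type markers also differed between libraries. Kupffer cell markers summed to 363 to 529 CPM in SA and 206 to 411 CPM in Ctrl, with Ctrl 4 lowest. Stellate cell markers summed to 176 to 201 CPM in SA and 207 to 489 CPM in Ctrl, where Ctrl 4 had 428 CPM, and their defining gene Lrat was at 0 in all libraries. Markers of recruited macrophages, endothelium, bile duct and T cells overlapped between the groups, as did those of erythroid cells. The part of cell composition in the levels of the subunits was not tested.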

How the data were processed

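RNA from frozen liver was sequenced in 8 libraries, 4 SA and 4 Ctrl, with a NEBNext Ultra kit per the labels' protocols. Read counts in the deposited count table are whole numbers without normalization, and the deposited FPKM table holds FPKM values computed by the authors for 9265 rows, 88 of them members. Tools named in the submitters' processing notes are HISAT2, StringTie 2.2.1 and FastQC 0.19.7, and the builds named there, without a role, are GRCm39 and mm10. The counting program was not given in the sources used here. All 8 FPKM columns correlated best with the count column of their own library, at r of 0.226 to 0.416 for log2 deviations from the gene means over 7333 genes, against at most 0.0927 with any other.

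Counts were tested with edgeR 4.0.16 (R 4.3.3; quasi-likelihood F test, TMM factors, filterByExpr) over the whole table, without a block, and p-values were adjusted by Benjamini-Hochberg over all 12358 genes tested, with 0.05 as the threshold. CPM are relative to tested counts times the TMM factor, and a deviation is the log2 of CPM + 0.5 against the mean over 8 libraries. Simulated counts of SA against Ctrl had 12249 genes tested, with 100 genes changed 2-fold and 100 changed 4-fold. In them 63% of 2-fold and 95% of 4-fold changes were recovered, and 8 of 166 calls were false. Each pair of libraries differed beyond sampling noise, with a chi-square of at least 27.7 per degree of freedom. Intervals between libraries cover no error beyond these samples.

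Members and gene lists were chosen with earlier results of these data known. Named genes were, for each of complexes I, III, IV and V, the 3 nuclear members with the smallest p and the 2 with the highest CPM, all of complex II, all mitochondrial rows, isoforms with their partners, and up to 3 genes per list; 1 gene that this rule names is not reported here. Transcript length is that of the GENCODE M21 transcript with the longest coding sequence, found for 99.4% of tested genes. Shared sequence was searched in stretches of 100 bases on both strands of annotated transcripts. Alternatives were RLE, upper quartile and no scaling factors, scaling without mitochondrial counts, DESeq2 1.42.0, limma-voom (limma 3.58.1) with and without sample weights, no filter and one at 1 CPM in 4 libraries, the authors' FPKM with limma after log2(FPKM + 1) or log2(FPKM + 0.1), with and without a filter of FPKM of at least 0.5 in 4 libraries, the replicate number as a block, and the omission of each library. FPKM fold changes are on the log2(FPKM + pseudocount) scale and understate changes of low genes.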

Additional observations from a re-analysis of the deposited data

Results flagged for a closer look

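In a group of 4 libraries, a value was listed here where its gap to the nearest other library was beyond the 95% critical value of Dixon's test as a share of the range of the group, which chance gives in about 1 in 20 groups. Ctrl 4 was set apart by the ratio of mitochondrial to nuclear summed CPM, at 12.1 over all complexes, 25.5 in complex I, 18.4 in complex III, 35.2 in complex IV and 0.0179 in complex V, where both mitochondrial rows are low in the counts. Ctrl 4 was also set apart by ND2 at 12351 CPM and ND5 at 9148 CPM.

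SA 4, the library of highest depth, was set apart among the SA libraries by a lower mitochondrial sum, 42628 CPM over 13 rows, 16511 CPM over the 7 rows of complex I, 42549 CPM over the 7 high rows and 78.6 CPM over the 6 low rows. SA 3 was set apart by Cox5b at 40.9 CPM, and SA 1 by Ndufb2 at 2.15 CPM. These flags share libraries and members and are not independent of each other. How many groups were screened is not given here, so flags that chance would give cannot be told from the others.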

How the results depend on the processing

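Under all 21 alternatives, 0 members and 0 other genes of the pathway passed. Of 1283 values of 62 named genes, 1188 kept their direction and 95 did not, and no value was past the threshold under any setting. The median of the nuclear members was -0.22 to 0.00935 and that of the mitochondrial members -0.54 to 0.05 when 1 library was left out, and the log2 ratio of group means ranged from -0.19 to 0.00249 for the nuclear sum, from -0.49 to 0.12 for the mitochondrial sum and from -0.46 to 0.34 for the ratio of both, the highest being without Ctrl 4. The mitochondrial median was -0.05 with limma-voom and sample weights and -0.18 on either FPKM scale, against -0.35 as reported. Counting error is wide for the rows of ND3, ND4L, Ndufa4l2 and Ndufb2, which hold few counts, and why they do was not tested. The causes of the changes below were not tested.

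On log2(FPKM + 1), with or without a filter, log2 fold changes turned positive for Cox5b (0.0958), Cox7b (0.00944), Cox8a (0.182), Cyc1 (0.0672), ND4L (0.0192), ND5 (0.158), Ndufab1 (0.0451), Ndufs6 (0.154), Sdha (0.0219) and Uqcr11 (0.0587). For Ndufb2 it turned to -0.109, and to -0.116 on log2(FPKM + 0.1). On log2(FPKM + 0.1) the others were 0.101, 0.00983, 0.184, 0.0676, 0.0193, 0.158, 0.0550, 0.162, 0.0221 and 0.0619 in the same order, and 0.000291 for Ndufb6. With limma-voom, Cox5b was at 0.0947, Cox8a at 0.122, ND5 at 0.144, Ndufs6 at 0.0209 and Uqcr11 at 0.0123. With limma-voom and sample weights, ND1 was at 0.0682, ND2 at 0.183, ND4L at 0.128, ND5 at 0.44, ND6 at 0.122 and Sdhd at -0.0367. Without scaling factors, ND4L was at 0.00776 and ND5 at 0.0226.

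With the replicate number as a block, Cox5b was at 0.0667, Cox8a at 0.0824, ND5 at 0.172 and Ndufs6 at 0.00345, and the count of members past the threshold was 0. Deviations of libraries with the same number correlated at -0.02, -0.01, 0.24 and -0.24, so the numbers were not taken to pair the samples.

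With 1 library left out, values ranged from -0.36 to 0.00765 for Atp5l, -0.53 to 0.0648 for COX1, -0.35 to 0.19 for Cox5b, -0.37 to 0.0306 for Cox6a1, -0.30 to 0.0286 for Cox6b1, -0.19 to 0.11 for Cox7b, -0.40 to 0.14 for Cox8a, -0.13 to 0.0716 for Cyc1, -0.40 to 0.15 for ND1, -0.42 to 0.28 for ND2, -0.62 to 0.0341 for ND4, -0.24 to 0.30 for ND4L, -0.20 to 0.54 for ND5, -0.55 to 0.19 for ND6, -0.19 to 0.0160 for Ndufa4, -0.00258 to 0.25 for Ndufb2, -0.37 to 0.0171 for Ndufb6, -0.41 to 0.0958 for Ndufs6, -0.18 to 0.0697 for Ndufv1, -0.0939 to 0.0474 for Sdha, -0.18 to 0.0198 for Sdhc, -0.0733 to 0.22 for Sdhd, -0.21 to 0.0103 for Tmem70, -0.53 to 0.0662 for Uqcr11, -0.22 to 0.00403 for Uqcrc1 and -0.21 to 0.00694 for Uqcrfs1.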
